A study of Mus musculus with 8 samples.

Results

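MHC class II genes were described in endothelial cells sorted from a transplanted mouse melanoma. The 7 genes, taken by name, were Cd74, H2-Aa, H2-Ab1, H2-Eb1, Ciita, H2-DMa and H2-DMb1, and all 7 were found among the 28692 gene symbols of the deposited matrix. Cells with 20 or more UMIs of C1qa and C1qb together, or with any Ptprc UMI, were left out, because C1q genes mark macrophages and Ptprc (CD45) marks leukocytes. This removed 5 of 7635 cells: 2 from the blood endothelial (BEC) sort, which kept 3226, and 3 from the lymphatic endothelial (LEC) sort, which kept 4404.

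Tumors grew from MT-ret fragments on the ventral flank, in a total of 10 C57BL/6N mice, and blood vascular and lymphatic endothelial cells were separated by flow cytometry, 10000 of each. Both groups thus came from the same tumor model and strain, and they differed in the sorted cell type. The animals are not told apart, and the labels name no treatment, age, gate marker or control tissue. They list 4 libraries per sort, but the matrix columns carry no library number, so each sort was 1 sample and no test between sorts, p-value or replicate check could be given. Each captured transcript end carries a molecular tag (UMI), and a level is given as CPM, the UMIs of a gene over all UMIs of the sort or cluster, scaled to 1e6. The 95% intervals describe counting error and leave out any difference among animals or libraries. Those of CPM and of ratios also leave out the spread of UMIs among cells, so leaving out 1 cell can move a level beyond its interval.

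The sorts matched their labels. Together the 10 LEC markers reached 25355 CPM among cells sorted as LEC and 240 CPM among those sorted as BEC, and the 10 BEC markers 2655 and 24396 CPM. Cells of the BEC sort held a median of 19415 UMIs and those of the LEC sort 10999.5. The LEC sort also held a cluster of 369 melanocytic-like cells, and the BEC sort a cluster of 36 stromal-like cells. In all, 34 barcodes occurred in both sorts, and their cells held 37 class II UMIs. The values of low genes were not spread like single molecules. Among 2039 genes seen in 5 to 19 cells, values of 1, 2, 3 and 4 were all common (46.2%, 22.3%, 19.2% and 10.4% in the BEC sort), values of 5 or more made up 1.95%, and the LEC sort showed the same step, with 2.44% at 5 or more. The step stands at 4, the number of libraries listed per sort, so 1 molecule may have been counted up to 4 times. Intervals were therefore computed from the fewest molecules that could give the values, and 5 or more UMIs in a cell is more than 1 molecule could give under that reading.

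MHC class II molecules carry peptides from the endosomal route to the cell surface, where CD4 T cells read them. The I-A molecule is a pair of an alpha chain (H2-Aa) and a beta chain (H2-Ab1). The invariant chain, encoded by Cd74, escorts newly made pairs and fills their groove, and the H2-DM pair (H2-DMa and H2-DMb1) exchanges the remnant of the invariant chain for peptide. H2-Eb1 encodes the beta chain of I-E, whose alpha chain is not made in mice of the b haplotype such as C57BL/6. Ciita is the coactivator on which class II transcription depends. It is constitutive in dendritic cells and B cells and inducible by interferon gamma in many other cells, endothelium included. It is recruited to an X box and a Y box that lie close upstream of class II genes and are bound by the RFX complex, CREB and NF-Y.

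These paired boxes are shown here because most of the class II genes moved together across the cells described below. RefSeq promoters (GRCm38.p6, 250 bases before to 50 bases after each start) were available for H2-Aa, H2-Eb1, H2-DMb1 and H2-DMa, the last with 2 start sites. Each was searched on both strands for GNAACT, letters taken for the core of an X box. These had to be followed on the same strand by GATTGG, which holds the inverted CCAAT of a Y box, with 10 to 40 bases between them. The letters were chosen after these promoters had been read, and the 2 patterns do not overlap. The pair was found in H2-Aa, H2-Eb1 and H2-DMb1, and also in H2-Eb2, a class II beta gene outside the 7. It was not found at either H2-DMa start, nor in H2-DMb2, H2-Oa and H2-Ob, the other related genes searched. Only these exact letters were searched, so other forms of the boxes could be present in those genes. Of 32851 promoters of the same length, 154 (0.469%) held the pair on either strand. The stretches below run 5′ to 3′ on the strand of the gene, with the 2 boxes in capitals:
H2-Aa, chr17:34287861-34287910, minus strand: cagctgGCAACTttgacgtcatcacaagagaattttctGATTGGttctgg
H2-Eb1, chr17:34305770-34305818, plus strand: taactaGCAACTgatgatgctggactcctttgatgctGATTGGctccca
H2-DMb1, chr17:34153091-34153140, plus strand: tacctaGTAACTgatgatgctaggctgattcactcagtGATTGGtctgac
H2-Eb2, chr17:34325537-34325585, plus strand: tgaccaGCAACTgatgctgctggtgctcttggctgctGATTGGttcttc
The spacing was nearly constant, at 26 bases between the boxes in H2-Aa and H2-DMb1 and 25 in H2-Eb1 and H2-Eb2. The Y box ended 43 to 56 bases before the start in the 3 members and 95 bases before it in H2-Eb2. H2-Eb2 had no UMI in either sort despite holding both boxes. A match of letters is a description of the sequence and not evidence that a factor binds there.

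The first question was whether class II genes were present in blood and in lymphatic endothelium of the tumor, and in how many cells. Summed over the 7 genes, the level was 114 CPM (109 to 119) in the LEC sort and 13.0 CPM (11.7 to 14.5) in the BEC sort, a ratio of 8.75 (7.80 to 9.85). Among all genes with any UMI, 26.0% were at least 2-fold higher in the LEC sort. The 6 members seen in both sorts all were, and Ciita was seen in the LEC sort only. With a minimum of 50 CPM in either sort the share was 9.85%, and Cd74 was the only member to reach that level. The ratio of the sum was 5.58 without the LEC cluster in which class II was highest and 14.0 without 1 BEC cell described below. It was 8.66 without the barcodes found in both sorts. Markers of other cells also differed between the sorts. Macrophage markers summed to 52.7 CPM in LEC and 4.72 CPM in BEC, with Mrc1 and Cd68, at 19.4 and 18.5 CPM in LEC, making up most of it, and fibroblast markers to 191 and 23.5 CPM, mostly Dcn at 162 CPM in LEC. The pan-leukocyte list was at 14.9 and 18.1 CPM. Without cells holding a UMI of a pan-leukocyte marker or of C1qa, C1qb or C1qc the ratio was 7.93. The part of Mrc1, Cd68 and fibroblast markers was not tested.

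The chains that present peptide were all higher in the LEC sort. The order of their ratios depended on the scale, since with 10 CPM added H2-Ab1 (2.93) stood above H2-Aa (2.11). H2-Aa, the I-A alpha chain (chromosome 17, 34282744 to 34287823, minus strand), had 727 UMIs in 130 LEC cells and 40 UMIs in 15 BEC cells, or 12.3 CPM (10.8 to 14.0) against 0.562 CPM (0.338 to 0.877). Its ratio was 21.9, with a wide interval of 13.7 to 37.0 because few BEC molecules were seen. H2-Ab1, the I-A beta chain (chromosome 17, 34257689 to 34269419, plus strand), had 1890 UMIs in 354 LEC cells and 306 in 80 BEC cells. That was 31.9 CPM (29.4 to 34.6) against 4.30 CPM (3.54 to 5.18), and the ratio of 7.43 (6.06 to 9.18) lay below the interval for H2-Aa. Without added CPM, the intervals of the alpha and the beta chain of the same pair did not overlap. H2-Eb1, the I-E beta chain (chromosome 17, 34305867 to 34316674, plus strand), stood at 9.66 CPM (8.31 to 11.2) and 1.03 CPM (0.697 to 1.46), a ratio of 9.42 (6.41 to 14.3).

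Cd74, the invariant chain (chromosome 18, 60803848 to 60812652, plus strand), had 3007 UMIs in 294 LEC cells and 356 UMIs in 45 BEC cells. The levels were 50.8 CPM (47.5 to 54.3) and 5.0 CPM (4.13 to 6.00), and the ratio was 10.2 (8.35 to 12.4). Of the 356 BEC UMIs, 66.9% came from a single cell, and without the top cell of each sort the ratio was 29.6. Of the LEC UMIs the top cell held 3.33%. Cd74 in the BEC sort was thus mostly the reading of 1 cell.

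The peptide-exchange genes were nearer to each other in the LEC sort than in the BEC sort. H2-DMa (chromosome 17, 34119541 to 34139101, plus strand) stood at 4.19 CPM (3.35 to 5.17) in LEC and 1.73 CPM (1.28 to 2.28) in BEC, a ratio of 2.42 (1.69 to 3.52). H2-DMb1, its partner chain (chromosome 17, 34153072 to 34160230, plus strand), stood at 5.18 CPM (4.28 to 6.22) in LEC and 0.435 CPM (0.225 to 0.761) in BEC, a ratio of 11.9 (6.56 to 23.7). H2-DMa had the smallest ratio of the 6 genes, and its BEC UMIs were spread over 48 cells with at most 8 in a cell. Without the LEC cluster that was highest for class II its ratio was 1.40.

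Ciita, the class II coactivator (chromosome 16, 10480059 to 10528418, plus strand), was barely detected. It had 9 UMIs in 3 LEC cells, with at most 4 in a cell, and none in the BEC sort, where 3 counts would be 0.0421 CPM. No fold is given, since 9 UMIs may be as few as 3 molecules. All 3 cells also held Cd74, and 2 of them were in the cluster highest for class II. Among the related genes, H2-DMb2 had 9 UMIs in 3 LEC cells and none in BEC cells, H2-Oa had 1 LEC UMI, and H2-Ob, a chain of the H2-O pair that restrains H2-DM, had 26 UMIs in 10 BEC cells and 1 in the LEC sort. H2-Eb2 had none. The plot of CPM by sort shows these values.

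**Figure D1:**
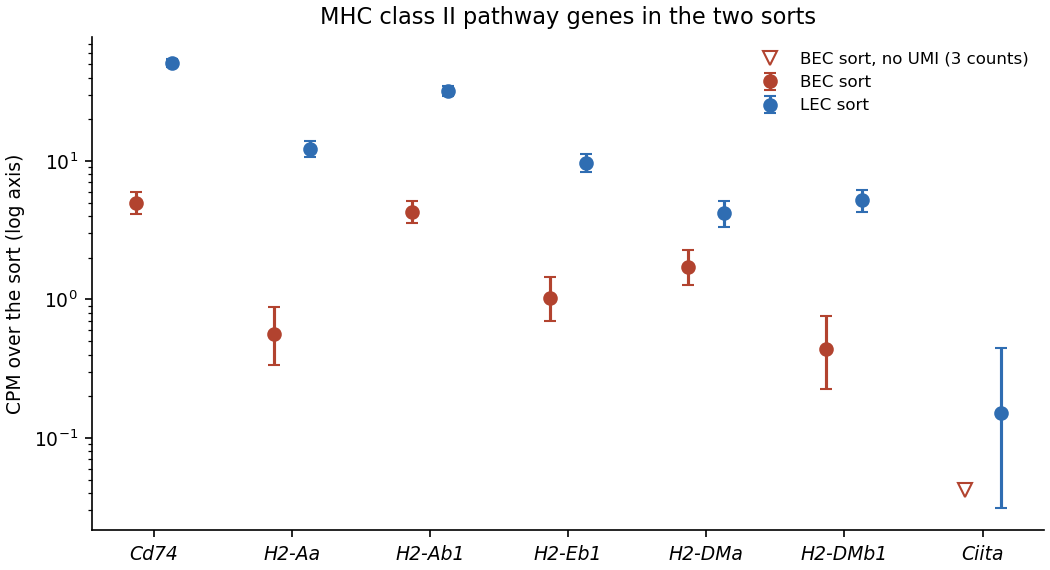
Level of each of the 7 class II genes in CPM over all UMIs of a sort (log axis), with BEC in red and LEC in blue. Bars are 95% counting intervals from the fewest molecules, and the open triangle marks 3 counts for Ciita, which had no BEC UMI. Each LEC point lies above its BEC point, from 2.42-fold for H2-DMa to 21.9-fold for H2-Aa.

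Class II UMIs were concentrated in few cells of either sort. In the LEC sort 667 of 4404 cells (15.1%) held at least 1 UMI of the 7 genes, 237 (5.38%, 4.73 to 6.09) held 5 or more, and 45 cells held 50% of the 6760 UMIs. In the BEC sort 194 of 3226 cells (6.01%) held at least 1, 21 (0.651%, 0.403 to 0.993) held 5 or more, and 7 cells held 50% of the 929 UMIs. At 50 or more UMIs there were 34 LEC cells and 1 BEC cell. That BEC cell held 349 class II UMIs of its 39293, namely 238 of Cd74, 57 of H2-Ab1, 33 of H2-Eb1, 17 of H2-Aa, 2 each of H2-DMa and H2-DMb1, and 0 of Ciita. It also held 1397 UMIs of BEC markers and 316 of pan-endothelial markers, 1 UMI of LEC markers, and no UMI of the macrophage, B cell, T and NK, neutrophil or pan-leukocyte lists. The dendritic list had 13 UMIs in it. The 2 LEC cells with the most class II held 207 and 159 UMIs, of which 94 and 95 were Cd74.

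Shares of positive cells were then compared at equal depth, each cell being thinned to 5000 UMIs, which no cell fell short of. At 3 or more class II UMIs the LEC share was 5.0% (220 cells, 4.37 to 5.68) and the BEC share 0.372% (12 cells, 0.192 to 0.649). Without thinning these were 10.5% and 2.63%. Cells of the melanocytic-like and stromal-like clusters are set beside these, although melanoma and stromal cells can express class II under interferon and are not blanks. Of the melanocytic-like cells of the LEC sort, at a median of 23291 UMIs, 4.88% (2.92 to 7.60) held a class II UMI after thinning and 0.542% held 3 or more. In the LEC-sort endothelial clusters, at a median of 10536 UMIs, the shares were 12% (11 to 13.1) and 5.42% (4.74 to 6.16). In the BEC-sort endothelial clusters, at a median of 19379.5 UMIs, 2.37% (1.87 to 2.96) held a UMI after thinning. In the 36 stromal-like cells of that sort, at a median of 16712 UMIs, it was 13.9% (4.67 to 29.5), an interval that also holds the LEC endothelial share. The BEC endothelial share thus lay below that of stromal-like cells and is not read as expression across BEC. The LEC endothelial share lay above that of the melanocytic-like cells of its sort. Because thinning cannot undo the repeat counting of molecules, shares at 1 to 4 UMIs remain sensitive to it.

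The next question was which endothelial cells held class II. Cells were clustered without the 7 genes and their relatives among the variable genes, which gave 17 clusters, 15 of them endothelial units with at least 30 cells of a sort. In the LEC sort the summed level ran from 42.2 CPM (35.2 to 50.3) in cluster 7 to 729 CPM (679 to 781) in cluster 12. Cluster 12, with 257 LEC-sort cells, was led by the chemokine genes Ccl2 and Ccl7, the adhesion gene Vcam1, Serpina3g and the interferon-inducible genes Gbp2 and Iigp1, with Cd74 and H2-Ab1 also among its 10 leading genes. It stayed unnamed because Dcn, a fibroblast marker, was another of them, although 9 of the 10 LEC markers were detected in it. It held 5.84% of the LEC-sort cells and 42.0% of their class II UMIs. Its bounds depended on the clustering, since another random seed gave a highest cluster of 106 cells, 105 of them from cluster 12, at 1640 CPM with 32.7% of the UMIs. Below it came cluster 11 at 205 CPM (179 to 233), cluster 5, led by Nmb and Ptx3, at 168 CPM (152 to 186), and the 37 cells of cluster 17 at 90.9 CPM (41.6 to 173). Leukocyte markers moved with class II in part. Cluster 5 had the highest pan-leukocyte sum of the LEC-sort clusters, 39.3 CPM against 12.3 CPM in cluster 12, and macrophage markers summed to 116 CPM in cluster 5, 213 CPM in cluster 11 and 33.6 CPM in cluster 12. Their part in the levels of clusters 5 and 11 was not tested. Intervals of clusters 11 and 5 overlapped, as did those of clusters 5 and 17. Clusters 13, 3, 1 and 7 followed at 60.8, 54.0, 50.4 and 42.2 CPM, with each interval overlapping that of its neighbor in this order.

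Every BEC-sort endothelial cluster stood below every LEC-sort endothelial cluster, though the intervals of the highest BEC and the lowest LEC cluster overlapped. Cluster 6 was highest at 31.3 CPM (26.4 to 36.8), which includes the 1 cell with 349 UMIs out of its 481. The others ran from 19.1 CPM (10.7 to 31.4) in cluster 14, led by the arterial and capillary genes Gja5 and Car4, to 0.989 CPM in cluster 15, where 1 UMI was seen in 92 cells. The stromal-like cluster 16 stood at 66.0 CPM (39.1 to 104) on 50 UMIs in 11 of 36 cells, with no Cd74 among them. The melanocytic-like cluster of the LEC sort stood at 16.5 CPM (12.4 to 21.4).

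**Figure D2:**
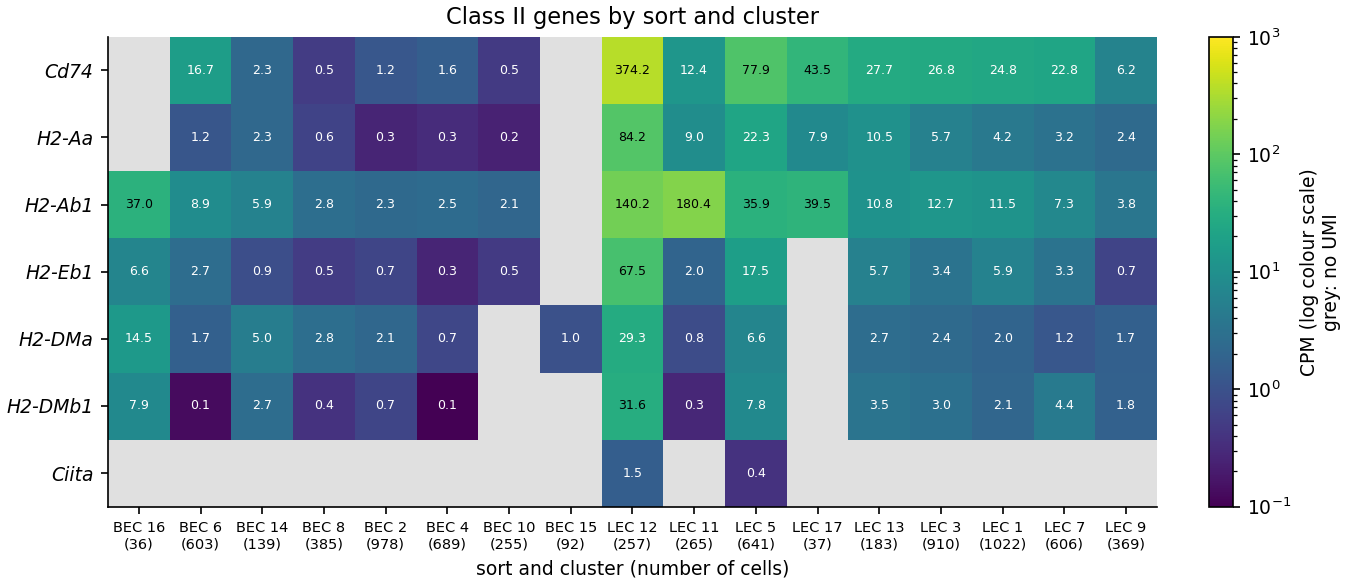
CPM of each gene (rows) in each sort and cluster with at least 30 cells (columns, cells in brackets), on a log colour scale with grey for no UMI. In LEC cluster 12 all 7 genes are at their highest but H2-Ab1, which is higher in cluster 11, at 180 CPM, where Cd74 is at 12.4 CPM.

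In cluster 12 the members were high together. Cd74 stood at 374 CPM (338 to 413), H2-Ab1 at 140 CPM (119 to 164), and H2-Aa, H2-Eb1, H2-DMb1 and H2-DMa at 84.2, 67.5, 31.6 and 29.3 CPM. Cd74 made up 51.4% of the class II UMIs there, H2-Ab1 19.2%, H2-Aa 11.6% and H2-Eb1 9.27%. The same make-up was seen in cluster 5, with 46.2% Cd74, 21.3% H2-Ab1, 13.3% H2-Aa and 10.4% H2-Eb1. Clusters 1, 3 and 7 were alike, with Cd74 between 49.2% and 54.1% of the UMIs and H2-Ab1 between 17.3% and 23.5%. The smaller members varied more, H2-DMb1 from 4.22% in cluster 1 to 10.4% in cluster 7, H2-Aa from 7.51% in cluster 7 to 13.3% in cluster 5 and H2-Eb1 from 6.24% in cluster 3 to 11.6% in cluster 1. Cd74 had the largest share in each of clusters 12, 5, 1, 3 and 7, whose summed level ran from 42.2 to 729 CPM.

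Cluster 11 did not share those proportions. Its 265 LEC-sort cells were led by Npy, Pgf, Hk2, Ndufa4l2 and Vegfa, of which Pgf, Hk2, Ndufa4l2 and Vegfa are known targets of hypoxia-inducible factors. It stayed unnamed because Cd68, a macrophage marker, was among its leading genes, with 7 of 10 LEC markers detected. H2-Ab1 made up 88.0% of its class II UMIs and Cd74 6.06%. H2-Ab1 stood at 180 CPM (156 to 207), above its level in cluster 12, and had a UMI in 123 of 265 cells, while Cd74 stood at 12.4 CPM (6.79 to 20.8), H2-Aa at 9.0 CPM and H2-Eb1 at 2.0 CPM. Per Cd74 UMI there were 14.5 UMIs of H2-Ab1 in cluster 11 and 0.375 in cluster 12. Over all other LEC-sort endothelial clusters together the figure was 0.420. In BEC-sort clusters with Cd74 UMIs it ran from 0.533 in cluster 6 to 5.50 in cluster 8, where Cd74 had 4 UMIs.

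The same difference was seen cell by cell. Of 123 cells of cluster 11 with H2-Ab1, 113 (91.9%) held no other member, against 14 of 67 (20.9%) in cluster 12. Cluster 12 was low in this respect, since it was 39 of 62 (62.9%) in cluster 5. Over all LEC-sort endothelial clusters other than 11 it was 99 of 222 (44.6%). In BEC clusters 4 and 6 it was 16 of 16 and 20 of 25. At 5 or more H2-Ab1 UMIs, which is more than 1 molecule could give, 41 of 47 cells in cluster 11 held no other member (87.2%, 74.3 to 95.2). In cluster 12 it was 0 of 32 cells, which allows a share of up to 9.38%, and in the other LEC-sort clusters 5 of 40 (12.5%, 4.19 to 26.8). Cd74 was present in 4 of these 47 cells in cluster 11, in 31 of 32 in cluster 12 and in 28 of 40 elsewhere. At 10 or more H2-Ab1 UMIs, 14 of 15 cells in cluster 11 still held no other member, against 0 of 18 in cluster 12. The median depth was 11970 UMIs in cluster 11 and 13348 in cluster 12, and the cells with H2-Ab1 alone had a higher median depth, 15331 UMIs, than those with other members, 12527.5 UMIs. In the BEC sort, 7 of 13 cells with 5 or more H2-Ab1 UMIs held no other member.

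**Figure D3:**
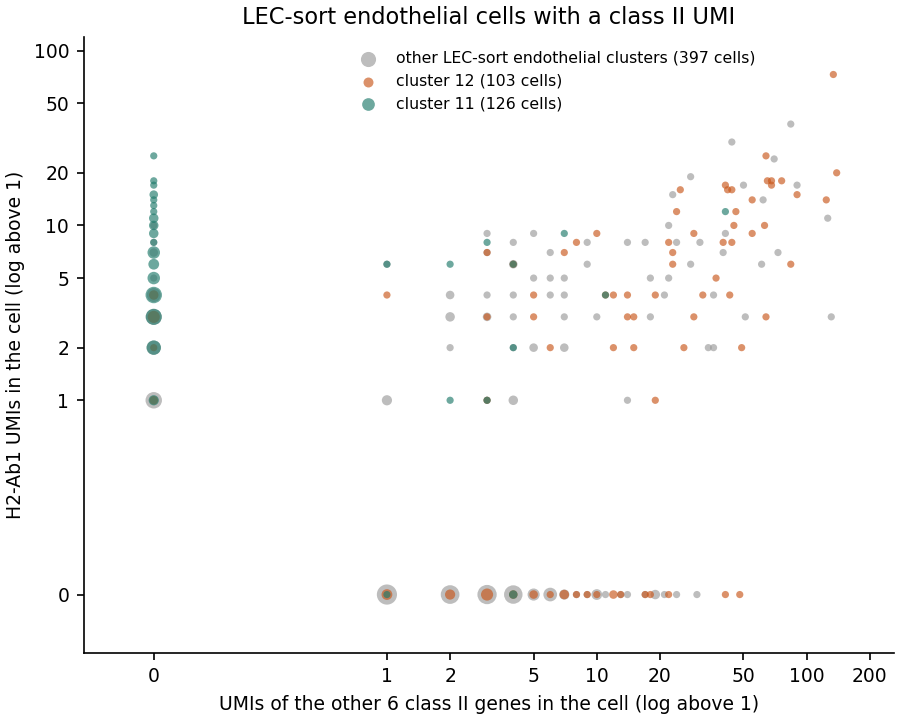
H2-Ab1 UMIs (y axis) against UMIs of the other 6 genes (x axis) in LEC-sort endothelial cells with a class II UMI, both on axes that are logarithmic above 1, with point size rising with the number of cells. Cells of cluster 11 (green) line up at 0 on the x axis up to 25 H2-Ab1 UMIs, whereas those of cluster 12 (orange) with many H2-Ab1 UMIs also hold the other genes.

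**Figure D4:**
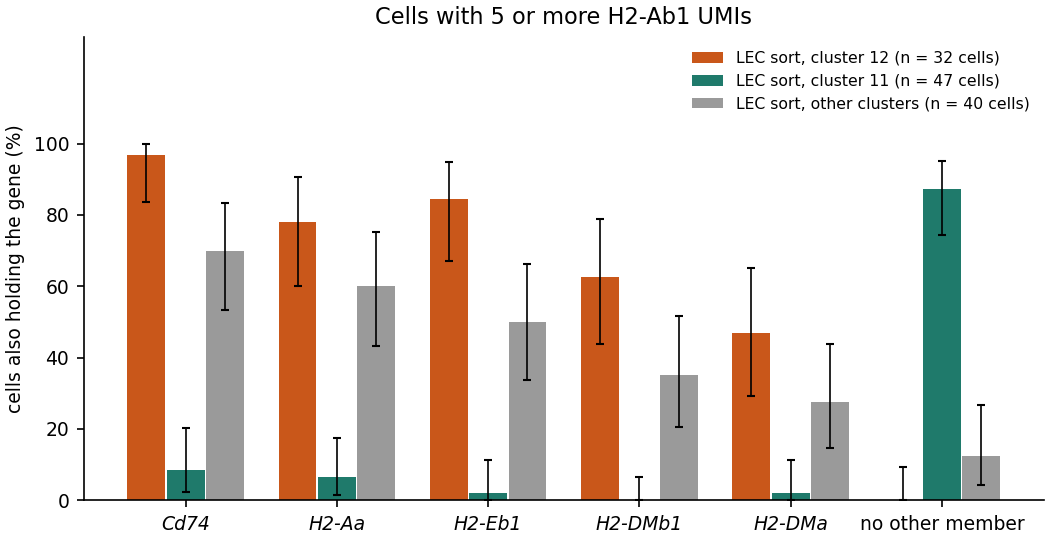
Percentage of LEC-sort cells with 5 or more H2-Ab1 UMIs that also held each other member or none, in cluster 12 (32 cells), cluster 11 (47 cells) and all other clusters (40 cells), with 95% intervals (exact, or the limit from 3 counts where none was found). Cd74 was found in 31 of the 32 cells of cluster 12 and in 4 of the 47 cells of cluster 11.

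In the LEC sort, the members other than H2-Ab1 were mostly found in cells that also held Cd74. After thinning, 64 of 94 LEC-sort endothelial cells with H2-Aa also held Cd74 (68.1%), while Cd74 was found in 4.07% of cells without H2-Aa. Of cells with H2-DMa, H2-DMb1 or H2-Eb1, 61.7%, 60.0% and 59.6% also held Cd74. The figure for H2-Ab1 was 33.8%, with the cells of cluster 11 among them. Outside cluster 11, without thinning, 102 of 222 cells with H2-Ab1 held Cd74. In BEC-sort endothelial cells after thinning, Cd74 was found in 2 of 32 cells with H2-Ab1, 0 of 19 with H2-DMa and 1 of 11 with H2-Eb1. It was found in 1 of 3 with H2-Aa and 1 of 2 with H2-DMb1. At 5 or more H2-Aa UMIs, without thinning, 39 of 43 LEC cells held Cd74, 39 held H2-Ab1 and 32 held H2-Eb1, and none was without another member. At 5 or more Cd74 UMIs, 30 of 125 LEC cells showed no other member. Of LEC-sort cells with 10 or more class II UMIs, 56 of 140 were in cluster 12, 20 in cluster 5, 19 in cluster 11 and 17 in cluster 1, so cells rich in class II were not limited to 1 cluster. Of the 34 cells with 50 or more, 21 were in cluster 12 and 7 in cluster 5.

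Genes whose level followed the summed class II level across the 15 endothelial units of sort and cluster were ranked by Pearson correlation of log2(CPM + 1). The units of a sort share its libraries and depth, so the values are a description. Ccl2, a chemokine gene for monocytes, had the highest value (0.94), with 7020 CPM in its highest unit and 2.97 CPM in its lowest. It was followed by Sdc4 (0.93), Rnh1 (0.91), Plat (0.90), Gpnmb, Snx9 and Zbp1 (each 0.90), and Ccl7 and Tslp (each 0.89). Zbp1, a sensor of Z-form nucleic acid that interferons induce, ran from 2.42 to 151 CPM, and Plat, tissue plasminogen activator, from 46.0 to 524 CPM.

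The last question was what else differed between lymphatic endothelial cells with and without class II. LEC-sort endothelial cells were classed by their class II UMIs after thinning, which is a range of cells and not a type. The upper class held 218 cells with 3 or more UMIs, at a median depth of 10322 UMIs, and the lower class 3541 cells with 0, at a median of 10516. Between them lay 266 cells with 1 or 2 UMIs, 110 of them with exactly 2, and 65 cells of the upper class had exactly 3. Cluster 12 held 65 of the 218 cells and cluster 11 held 43. There were 8126 genes that reached 10 CPM in either class, of which 3.47% were at least 2-fold higher in the upper class and 2.92% at least 2-fold higher in the lower. The members chose the classes and are left out of all counts that follow. The first 4 genes of each list by mean level are named, and any further gene was named after its values had been seen.

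Interferon gamma response genes were higher in the upper class. Of the 16 that reached 10 CPM, 15 were higher by 2-fold or more and none lower, with a median log2 ratio of 2.48 against -0.05 over all genes. Without cluster 12 the count was 11 of 14 and the median 1.62, and the summed level of the list in the upper class was 1214 CPM in place of 3345 CPM. Iigp1, an immunity-related GTPase, stood at 1064 against 121 CPM, a ratio of 8.82 (8.06 to 9.64), and Gbp2, a guanylate-binding protein, at 603 against 57.5 CPM, a ratio of 10.5 (9.31 to 11.8). Psmb10, an immunoproteasome subunit, stood at 246 against 92.6 CPM. Icam1, an adhesion molecule, was level at 95.4 against 94.8 CPM, a ratio of 1.01 (0.794 to 1.26), and was the 1 gene of the 16 that did not differ by 2-fold. Cxcl9 and Cxcl10, chemokines for CXCR3-bearing T cells, stood at 166 against 1.83 CPM and at 233 against 10.5 CPM. They were found in only 12.8% and 11% of the upper class.

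Genes of the MHC class I route moved the same way, with 10 of 13 at least 2-fold higher and a median log2 ratio of 1.26. B2m, the shared light chain, stood at 7739 against 3233 CPM (2.39-fold, 2.32 to 2.47), H2-K1 at 1737 against 724 CPM, and the immunoproteasome gene Psmb8 at 525 against 159 CPM. H2-D1 was 1.79-fold higher (1.72 to 1.86). Nlrc5, the coactivator of class I genes and a relative of Ciita, stood at 23.6 against 3.92 CPM. Of 12 type I interferon response genes 5 were at least 2-fold higher, with a median of 0.86. Bst2 and Isg15 were 1.81-fold and 1.57-fold higher, and Rtp4 and Irf7 2.14-fold and 3.10-fold.

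The factors that bind class II promoters showed little difference. Of 12 genes of that list 2 were at least 2-fold higher. Irf1, a factor induced by interferon gamma that acts upstream of Ciita, stood at 117 against 30.7 CPM (3.82-fold, 3.04 to 4.76). Irf2 was 1.34-fold higher (1.06 to 1.68) and Nfyb, an NF-Y subunit, 1.09-fold (0.819 to 1.43). The RFX genes Rfxap, Rfxank and Rfx5 had ratios of 1.33 (0.876 to 1.93), 0.681 (0.307 to 1.32) and 0.836 (0.220 to 2.26), intervals that all include 1. The interferon gamma receptor chains were level too, with Ifngr1 at 111 against 117 CPM and Ifngr2 at 90.6 against 76.0 CPM. In the same list Jak1 was 1.16-fold (0.947 to 1.41) and Socs3 1.10-fold (0.956 to 1.26), while Socs1, a feedback inhibitor of this pathway, was 4.13-fold higher (2.61 to 6.32). Across the sorts the receptor chains ran the other way from class II: the level of Ifngr1 was 109 CPM against 251 CPM in the BEC sort, and that of Ifngr2 76.1 against 167 CPM.

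Genes that process antigen for class II were mostly level between the classes. Of 8 genes 1 was at least 2-fold higher. The lysosomal proteases Ctsb, Lgmn and Ctsl had ratios of 1.04 (0.964 to 1.13), 1.03 (0.949 to 1.11) and 1.01 (0.901 to 1.12), and Cd63, a membrane protein of late endosomes, 1.44 (1.37 to 1.52). The 1 exception was Ctss, which trims the invariant chain in professional antigen-presenting cells, at 14.4 against 1.71 CPM with UMIs in 3.21% of the upper class. Of 4 genes measured among those that signal to T cells beside the peptide, 1 was at least 2-fold higher. Cd80, Cd86 and Pdcd1lg2 had no UMI in either class. Lgals9, Vsir, Cd40 and Cd276 had ratios between 0.726 and 1.22, all with intervals that include 1. Cd274, which encodes PD-L1, was 7.17-fold higher (3.94 to 12.5), at 19.6 against 2.74 CPM, with UMIs in 5.50% of the upper class.

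Of the inflammation list 3 of 12 genes were at least 2-fold higher and 1 lower. Nfkbia, Ptx3 and Ccl7 had ratios of 1.03, 0.923 and 1.05, and Ccl2 1.70 (1.58 to 1.82). Ccl2, though it followed class II best across clusters, thus differed less between cells with and without class II than the interferon gamma genes did. By rank over all genes at 50 CPM or more with a UMI in 25% or more of the cells of the higher class, the 12 highest ratios were those of Gbp4 (12), Gbp2, Iigp1, Ifi47 (6.85), Gbp3, Igtp, Zbp1, Pla2g16, H2-Q7, Pfkfb3, Dcn and Bnip3 (4.02). The 6 lowest were Tppp3 (0.198), Aqp1, Hspa12b, Ptn, Gas6 and Igfbp5 (0.405). Pfkfb3 and Bnip3 belong to the hypoxia response. Of a hypoxia list added after seeing the data, 11 of 13 genes were at least 2-fold higher in the upper class. With cells classed without H2-Ab1 it was 0 of 11, and without cluster 11 it was 1 of 10. Classing without H2-Ab1 also moved cells with H2-Ab1 alone into the lower class, which then held 3703 cells. Tppp3 and Igfbp5 lead cluster 3, which held 20.7% of the LEC-sort cells at a class II level of 54.0 CPM. LEC markers were level between the classes, with 0 of 10 at least 2-fold apart and sums of 27623 and 30270 CPM. BEC markers summed to 1473 CPM in the upper class and 2430 CPM in the lower. Clusters whose detected markers were those of BEC held 2 of the 218 cells of the upper class and 100 of the 3541 cells of the lower.

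Markers of leukocytes are given beside these results because leukocytes express class II. The pan-leukocyte list summed to 40.1 CPM in the upper class and 15.5 CPM in the lower, with a UMI in 7.80% and 4.74% of cells. The 1 gene of this list that reached 10 CPM was at least 2-fold higher in the upper class, with a log2 ratio of 1.23. Cytip was at 0 in both classes and Rac2 in the upper class, beside Ptprc, which the choice of cells set to 0. Macrophage markers summed to 91.0 and 54.4 CPM, with a UMI in 26.6% and 18.1% of cells, and Adgre1, Fcgr1 and Ms4a7 were at 0 in the upper class. Of the 2 macrophage genes that reached 10 CPM, 0 differed by 2-fold, with a median log2 ratio of 0.79. Dendritic markers summed to 252 and 285 CPM, and 7 of 10, among them Itgax, Flt3, Xcr1 and Clec9a, were at 0, of which 6 were at 0 in the lower class too. Fscn1, at 230 and 271 CPM, made up most of both sums. Of the 3 dendritic genes that reached 10 CPM, 1 was at least 2-fold higher in the upper class and none lower. It was Batf3, at 3.63-fold (1.71 to 7.05), with UMIs in 3.21% of the upper class. B cell markers summed to 1.60 and 0.890 CPM with 7 of 8 at 0 in the upper and 4 in the lower class, and T and NK markers to 0.801 and 1.32 CPM with 8 and 6 of 9 at 0. All 6 neutrophil markers were at 0 in the upper class, and they summed to 0.639 CPM in the lower. Zeros in the smaller upper class thus set it little apart. With every cell left out that held a UMI of a pan-leukocyte marker or of C1qa, C1qb or C1qc, 196 cells were in the upper class and 14 of 15 interferon gamma response genes were at least 2-fold higher, and the LEC over BEC ratio of the class II sum was 7.93. Fibroblast markers, led by Dcn, summed to 618 and 156 CPM, and their part in the result was not tested.

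Since the upper class mixed cells with all members and cells with H2-Ab1 alone, these were also set apart after the values had been seen. There were 154 LEC-sort endothelial cells with 5 or more UMIs of members other than H2-Ab1, of which 65 were in cluster 12 and 3 in cluster 11. H2-Ab1 at 5 or more UMIs with no other member was found in 46 cells, 41 of them in cluster 11. Both were compared with the same 3399 cells without a class II UMI, so their ratios share a reference and are given side by side. Of the 3399 cells, 139 were in cluster 11 and 93 in clusters whose detected markers were those of BEC. Of the 8085 and 8197 genes that reached 10 CPM, 2.56% and 9.43% were higher by 2-fold or more, and 2.81% and 19.2% lower.

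Interferon gamma response genes were mostly higher by 2-fold or more with the other members, and none was with H2-Ab1 alone. Of those at 10 CPM or more, 15 of 16 were at least 2-fold higher in the 154 cells, and 0 of 11 were higher and 5 were lower in the 46 cells, with median log2 ratios of 2.72 and -0.74. Iigp1 stood at 1220 CPM in the first, 59.8 CPM in the second and 121 CPM in cells without class II. Gbp2 stood at 685, 97.2 and 55.4 CPM, and Gbp4 at 165, 1.25 and 11.6 CPM. Below 2-fold, Irf8 and Gbp2 were 1.91-fold (1.24 to 2.82) and 1.75-fold (1.13 to 2.61) higher with H2-Ab1 alone than without class II. Cxcl9 and Cxcl10 had no UMI in the cells with H2-Ab1 alone and stood at 177 and 285 CPM in those with other members. Irf1 stood at 122 CPM with the other members and at 33.7 CPM with H2-Ab1 alone, against 30.2 CPM in cells without class II. Class I genes split likewise, with 11 of 13 and 1 of 12 at least 2-fold higher. B2m was 2.53-fold higher (2.45 to 2.61) in the one and 1.94-fold higher (1.83 to 2.06) in the other. Of 12 type I interferon response genes, 6 were at least 2-fold higher in each, and whether these were the same genes was not examined.

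Hypoxia genes, a list added after the leading genes of cluster 11 had been seen, showed the opposite. Of 14 genes all 14 were at least 2-fold higher in cells with H2-Ab1 alone, with a median log2 ratio of 3.03, against 0 of 10 in cells with other members, with a median of 0.01. The list holds Hk2, Ndufa4l2 and Vegfa, which are leading genes of cluster 11. Since 41 of the 46 cells with H2-Ab1 alone were in that cluster, the values do not separate H2-Ab1 from the cluster. Cells of cluster 11 with and without class II UMIs were not compared. Bnip3, a mitochondrial protein of the hypoxia response, stood at 912 CPM with H2-Ab1 alone, 45.3 CPM with other members and 57.4 CPM without class II. Adm, which encodes adrenomedullin, stood at 2240, 270 and 247 CPM, and Slc2a1, a glucose transporter, at 619, 41.1 and 41.4 CPM. Cell cycle genes were at least 2-fold lower for 10 of 10 with H2-Ab1 alone and summed to 21.2 CPM, against 270 CPM with other members and 315 CPM without class II. LEC markers summed to 6820 CPM with H2-Ab1 alone, with Ccl21a at 3879 CPM against 26201 CPM without class II, and to 29774 CPM with other members and 30825 CPM without. Prox1, the defining transcription factor of lymphatic endothelium, was nonetheless present, at 192 CPM against 265 CPM without class II. The macrophage list summed to 193 CPM with H2-Ab1 alone and 52.8 CPM without class II, and of its 3 genes that reached 10 CPM, 2 were higher by 2-fold or more. Cd68 stood at 135 against 17.0 CPM, Lyz2 at 17.4 against 6.79 CPM and Mrc1 at 36.1 against 21.8 CPM. C1qc, Csf1r, Adgre1, Fcgr1 and Ms4a7 were at 0, but stood at 1.43 CPM or less in the cells without class II, and the part of these markers in the result was not tested.

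**Figure D5:**
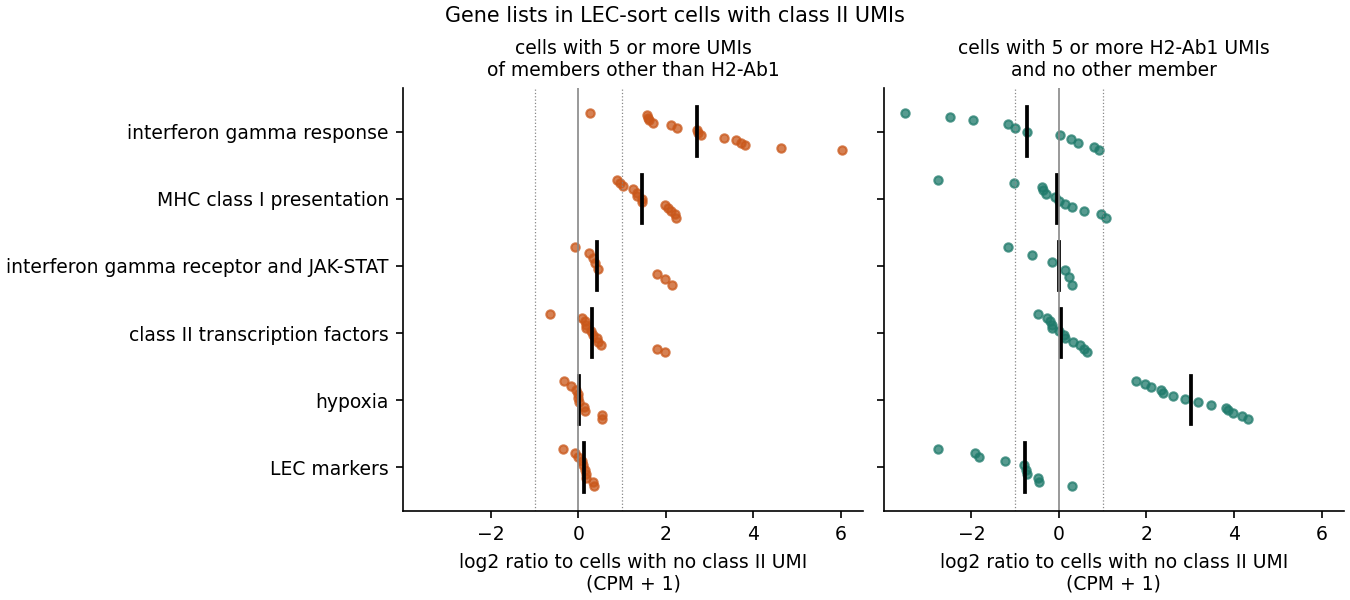
Log2 ratio of each listed gene at 10 CPM or more to LEC-sort cells without class II UMIs (1 CPM added), in 154 cells with members other than H2-Ab1 (left) and 46 cells with H2-Ab1 alone (right), with black bars at the median and dotted lines at 2-fold. Interferon gamma response genes lie to the right on the left panel (median 2.72), and hypoxia genes lie to the right on the right panel (median 3.03).

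Between the sorts the lists did not follow class II in one way. Of 8303 genes that reached 10 CPM in either sort, 11.6% had a level at least 2-fold higher in the LEC sort and 8.74% in the BEC sort, and of the members Cd74, H2-Ab1 and H2-Aa reached it. Of 12 interferon gamma response genes 1 was higher in the LEC sort, and the list reached 662 and 599 CPM. The class I list summed to 7451 and 7449 CPM, with B2m at 3501 and 3619 CPM. Of 12 transcription factor genes none differed by 2-fold, and of 8 peptide-processing genes 2 were higher in the LEC sort. Of 12 hypoxia genes 7 were higher in the LEC sort, of 13 inflammation genes 5 were higher and 3 lower, and of 7 genes of the interferon gamma receptor list 2 were lower. Cd63 stood at 2132 against 351 CPM, and Ifi30, a lysosomal thiol reductase, at 45.2 against 11.2 CPM. In single clusters the interferon gamma response list summed to 3351 CPM in LEC cluster 12. It summed to 1056 CPM in BEC cluster 8, led among others by the venular genes Ackr1, Sele and Selp, where class II stood at 7.64 CPM (5.04 to 11.1), and to 485 CPM in LEC cluster 5, where class II stood at 168 CPM.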

How the data were processed

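Raw UMI counts per gene and cell were used as deposited by the authors in 1 matrix. Cell Ranger 2.1.1 and build mm10 are named in the submitters' processing notes. How cells were filtered before deposit is not given there. Columns name the sort and no library.

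UMIs were summed per sort, cluster or class and scaled to CPM. Exact Poisson intervals of CPM and conditional binomial intervals of ratios were planned on UMIs. Since values stepped at 4, they were computed from the fewest molecules (each value divided by 4, rounded up). Shares have Clopper-Pearson intervals. At the depth of the sorts, 71204119 UMIs in BEC and 59215563 in LEC, 3 counts were worth 0.0421 and 0.0507 CPM. A molecule counted in several libraries is not several independent molecules, and with 1 sample per sort the intervals say nothing of the spread between animals.

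Cells were clustered with scanpy 1.11.5 and python-igraph 0.11.9 (2000 variable genes less the class II genes, leaving 1993, 30 principal components, 15 neighbours, Leiden resolution 1). A cluster was named from markers with a UMI in 50% of its cells and stayed unnamed where leading genes (50 CPM or more, UMI in 25% of cells) included a marker of another class and none of its own. Scrublet found 0 doublets among the BEC and 0 among the LEC, which was read as a failure of the caller, and no cell was removed as a doublet. Log2 ratios use a pseudocount of 1 CPM, and lists use genes at 10 CPM or more. Steps were tested on simulated data (Python 3.11.15 with pandas 2.3.3, scipy 1.17.1 and numpy 2.4.6), and plots were drawn with matplotlib 3.10.9.

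The members, lists and rules were chosen with earlier results of these data known. Named were all members and detected relatives, the 4 genes of each list with the highest mean CPM over the sorts, the 10 genes most like the members over units of at least 30 cells, and the 12 highest and 6 lowest ratios between classes. A few genes that this rule names are not reported here. Rankings passed over genes of mitochondria, ribosomal proteins and haemoglobin and gene models without a name. Gene positions are from GENCODE M21 (GRCm38, the assembly of mm10), and promoters from RefSeq (GRCm38.p6).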

Additional observations from a re-analysis of the deposited data

How the results depend on the processing

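The LEC over BEC ratio of the class II sum stayed above 1 under every alternative run. It was 11.3 with cells of each sort's own lineage, 7.75 with median-of-ratios size factors (which moved all log2 ratios by -0.18), 13.6 without the top cell of each sort, 5.39 with 10 CPM added, 7.35 with the fewest molecules, 5.58 without the highest LEC cluster and 14.0 without the top BEC cell. The share of BEC cells with 3 or more class II UMIs was 2.63% without thinning, 0.155% at 5 or more UMIs and 0.744% at 2 or more molecules. That of LEC cells was 2.29% thinned to 2000 UMIs, 10.5% without thinning, 2.77% at 5 or more UMIs, 5.70% at 2 or more molecules and 3.38% without H2-Ab1. The highest LEC cluster stood at 933 CPM with 37.1% of LEC class II UMIs at resolution 0.5, 1374 CPM with 32.6% at resolution 2, 1640 CPM with 32.7% under another seed, and 2309 CPM with 57.4% when class II genes were kept. Genes at least 2-fold higher in the upper class numbered 282, against 165 at 1 or more UMIs and 464 at 10 or more. Of the interferon gamma response genes, 11 to 15 were at least 2-fold higher under all 7 alternatives. Of 2 other lists the median log2 ratio changed sign: hypoxia from 1.33 to -0.43 with cells classed without H2-Ab1, and inflammation from 0.36 to -0.06 without the highest cluster. Classing without H2-Ab1 also put cells with H2-Ab1 alone into the lower class, whose hypoxia sum rose from 992 to 1199 CPM. Against cells with no class II UMI, the hypoxia median was 0.01 in cells with 5 or more UMIs of other members. Alternatives on the fewest molecules, H2-Ab1, the top BEC cell, shared barcodes and the highest cluster of the sort comparison were added after seeing the data. No paired analysis was possible because the columns carry no library number, and leaving out each library could not be run for the same reason. Depth limits Ciita, whose 9 UMIs in 3 LEC cells allow no ratio, and repeat counting limits every share below 5 UMIs.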
